A study of Drosophila melanogaster with 6 samples.

Results

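Genes of the tendon lineage and of the odd-skipped family, 9 in all, were followed in sorted leg disc myoblasts of *Drosophila melanogaster*. They were the 4 odd-skipped family genes *odd*, *drm*, *sob* and *bowl*, the transcription factor genes *sr* and *dar1*, and *Lrt*, *slow* and *Tsp*, which encode membrane or secreted proteins of tendon cells. The 9 genes were taken by symbol from the 17490 genes of the expression table, and all 9 were found there.

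Messenger RNA was sequenced from 3 replicates of GFP-positive myoblasts and from 3 replicates of the input. The input is a sample of all leg disc cells, so it also holds the myoblasts. All 6 libraries came from leg discs at 0 h after pupa formation (APF) of animals of the same genotype, R32D05-lexA>lexAopGFP. In this genotype a regulatory fragment of the *string* gene drives lexA, which switches on GFP in the myoblasts, so the sorted cells are those that this fragment marks, and the 6 libraries include none of GFP-negative cells alone or of tendon cells alone. Tendon cell data were not analysed here. Discs were dissociated with collagenase and papain before sorting. The sources do not say whether the replicates came from separate dissections, and p-values therefore measure the spread between these samples, which may be partly technical.

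The leg muscles of the fly attach to long internal tendons that are made by epithelial cells of the leg disc. Stripe, the product of *sr*, is an Egr-type zinc finger factor that commits epithelial cells to the tendon fate. The odd-skipped genes encode zinc finger proteins that act downstream of Notch signalling in rings of epithelium where the leg joints and the inner tendons form, and the adepithelial myoblasts lie beneath this epithelium. The short Drm protein is known to bind Lines and so to release Bowl from the inhibition that Lines exerts.

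Values are RPKM, read numbers scaled to transcript length and library depth, so that levels can be compared between genes. The steps of the RPKM scale gave total reads of 64759715 to 84316453 in the myoblast libraries and of 60432729 and 67763265 in input replicates 2 and 3. The step of input replicate 1 gave 41455114, fewer than the 45603725 reads recovered over its genes, so this is not its number of reads and its depth is uncertain. The 6 myoblast markers (*twi*, *htl*, *zfh1*, *Him*, *Mef2*, *stumps*) were all higher in the myoblasts, with summed RPKM of 538 to 642 against 83.1 to 109 in the inputs. Input replicate 1 stood apart from the other inputs. Its RPKM summed to 963726 over all genes, against 481720 and 589908, its 3 fat body markers summed to 15.3 against 0 and 0.281, and its 5 neuron markers summed to 12.97 against 52.4 and 47.0. The 6 hemocyte markers summed to 50.2 against 18.1 and 16.8, mostly through *He* (38.8 against 2.02 and 3.73). *NimC1* (2.78 against 0.658 and 1.23), *srp* (0.753 against 0.380 and 0.581) and *Hml* (0.0677 against 0.0549 and 0) were also highest in input replicate 1. *Pxn* (1.22 against 4.26 and 4.69) was lowest there, and *Col4a1* (6.55 against 10.7 and 6.58) was lowest by a small margin. Fold changes that moved most without this library are also given without it.

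All 9 genes were lower in the 3 myoblast libraries than in the 3 inputs, with no overlap between the groups. Over all 7533 tested genes, the same separation was seen for 1616 (21.5%). The 9 genes had mean RPKM of 2.32 to 73.7 in the input. No value above 2.54 was found for any of them in a myoblast library. Of the 9, 6 stayed under 1 RPKM in every myoblast library, 5 were listed at 0 in at least 1 myoblast library, and none was at 0 in an input. In bulk samples, fewer cells that express a gene and less RNA per cell cannot be told apart.

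**Figure D1:**
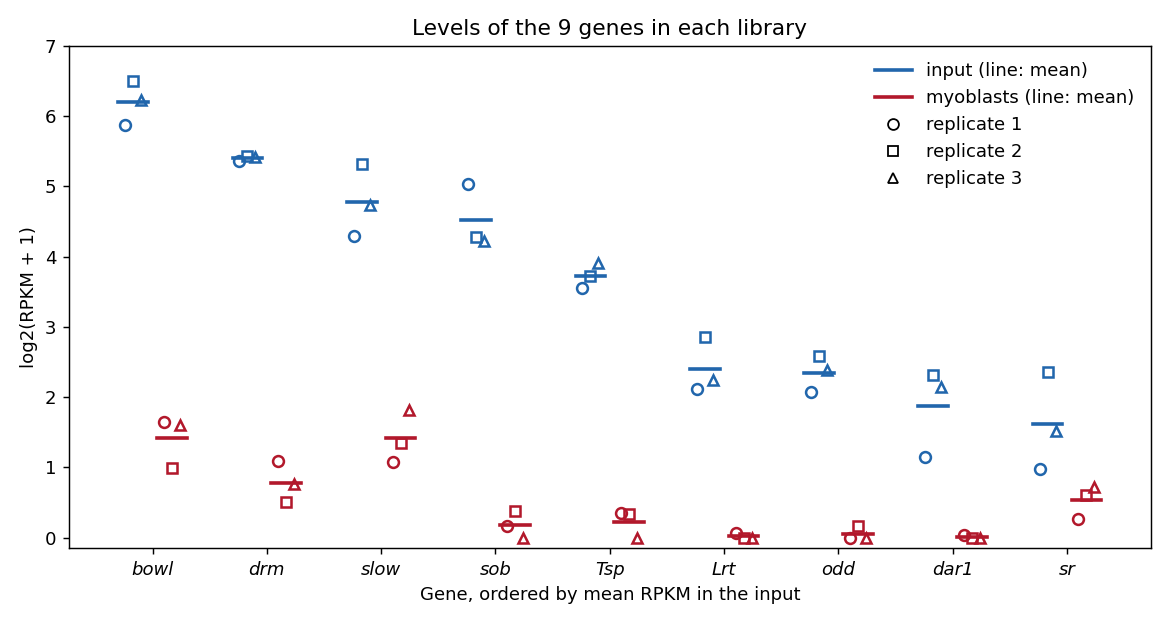
Level of the 9 genes, as log2(RPKM + 1), in each of the 6 libraries, with inputs in blue, myoblasts in red, a symbol for each replicate and a line at the mean of each group. Genes are ordered by their input mean. For every gene the 3 myoblast points lie below the 3 input points, from *bowl*, with mean RPKM of 1.72 and 73.7, to *sr*, with 0.459 and 2.32.

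The study tested read counts, and here limma was applied to log2(RPKM + 1) with adjustment over all tested genes. A gene was tested when it reached 1 RPKM in at least 3 of the 6 libraries, and calls needed both a fold over 1.5 and an adjusted p below 0.05. Of the 9 genes, 8 were tested and *sr* was not. Of the 8, 8 were called lower and 0 higher, against 1118 (14.8%) and 416 (5.52%) of all tested genes. The background split between directions depended on the scaling, with 924 lower and 180 higher when libraries were rescaled to the same sum and 797 and 809 with quantile normalization. Of the 8, 5 (*odd*, *sob*, *dar1*, *Lrt* and *Tsp*) reached 1 RPKM only in the inputs. They could only be tested because they were high there. *drm* and *bowl* reached 1 RPKM in 1 and 2 myoblast libraries, fewer than the 3 needed, so they too passed through the inputs. Only *slow* reached it in all 3 myoblast libraries, and the count of 8 is no support of its own. The fold changes below are on the log2(RPKM + 1) scale, which understates the change of genes near or under 1 RPKM, and each adjusted p is from this limma test with Benjamini-Hochberg adjustment.

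In the odd-skipped family, *bowl* was the most abundant in the input. *bowl* (FBgn0004893, chromosome arm 2L, 3771700 to 3784121, plus strand, dm6, 7 annotated transcripts) had RPKM of 57.7, 89.5 and 73.8 in input replicates 1 to 3. In myoblast replicates 1 to 3 it had 2.13, 0.984 and 2.04, so a low level was present in all of them. The means were 1.72 ± 0.637 and 73.7 ± 15.9 (SD, n = 3 each), which puts the myoblasts at 2.33% of the input. The log2 fold change was -4.79 (SE 0.278, 95% interval -5.43 to -4.15, adjusted p = 2.0e-05).

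*drm* (FBgn0024244, 2L, 3539247 to 3548423, plus strand, 3 transcripts), which encodes the Lines-binding member, was the most even of the 9 genes across the inputs in RPKM as deposited. The RPKM sums over all genes differed between input replicates 1 to 3 (963726, 481720 and 589908), so evenness across the inputs depends on the scaling. *drm* was at 40.1, 42.4 and 41.7 RPKM in the inputs, a mean of 41.4 ± 1.17 (SD, n = 3). The myoblast libraries held 1.13, 0.417 and 0.696 RPKM, a mean of 0.748 ± 0.359 (SD, n = 3) or 1.81% of the input. These values came from 268, 99 and 127 reads. The log2 fold change was -4.62 (SE 0.249, adjusted p = 1.7e-05), and 79 of the 7533 tested genes (1.05%) had a lower one.

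*sob* (FBgn0004892, 2L, 3578013 to 3580769, minus strand, 1 transcript), the close relative of *odd*, differed from *drm* in how its deposited RPKM varied among the inputs. That contrast also depends on the scaling. Its input values were 31.8, 18.5 and 17.7 RPKM, and the highest belonged to input replicate 1. In the myoblasts it was at 0.118, 0.304 and 0 RPKM, the zero being in replicate 3. The means were 0.141 ± 0.153 and 22.7 ± 7.94 (SD, n = 3 each), or 0.621% of the input. Without myoblast replicate 2 it was 0.261%. The log2 fold change was -4.33 (SE 0.313, adjusted p = 5.5e-05), and without input replicate 1 it was -4.07.

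*odd* (FBgn0002985, 2L, 3604224 to 3606756, minus strand, 1 transcript), the pair-rule gene that gave the family its name, was the least abundant member in the input. It was at 3.22, 4.98 and 4.24 RPKM in the inputs. Only myoblast replicate 2 held any signal, 0.126 RPKM from 25 reads, while replicates 1 and 3 were listed at 0. The means were 0.0421 ± 0.0729 and 4.14 ± 0.884 (SD, n = 3 each), or 1.02% of the input. This share rests on myoblast replicate 2, without which it was 0%, so *odd* and *sob* cannot be ranked by their shares. The log2 fold change was -2.29 (SE 0.294, 95% interval -2.97 to -1.61, adjusted p = 0.00098). With a pseudocount of 0.1 it was -4.99, close to the values of *bowl* and *drm* on that scale (-5.39 and -5.70).

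**Figure D2:**
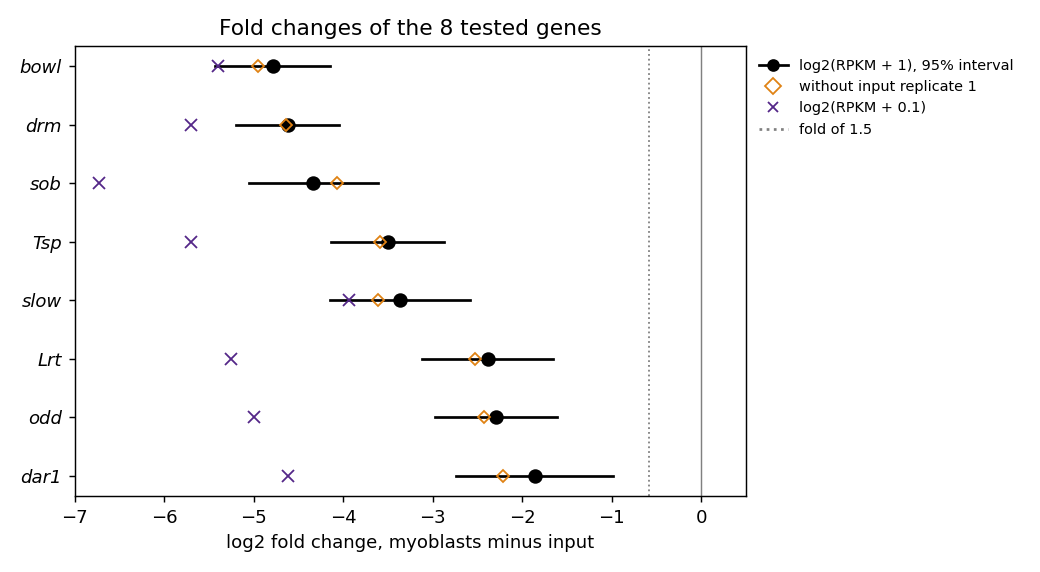
Log2 fold change (myoblast minus input) of the 8 tested genes by limma, with 95% intervals, at a pseudocount of 1 (black), with the value without input replicate 1 (diamonds) and at a pseudocount of 0.1 (crosses). Dotted and solid lines mark a fold of 1.5 and no change. All intervals lie below 0, the values at a pseudocount of 1 run from -1.86 (*dar1*) to -4.79 (*bowl*), and every gene moves further down at a pseudocount of 0.1, as far as -6.73 (*sob*).

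Summed over the family, the odd-skipped genes made up 133, 155 and 137 RPKM in the inputs and 3.38, 1.83 and 2.73 RPKM in the myoblasts. The make-up of the input sum was similar in replicates 2 and 3. *bowl* gave 57.6% and 53.7% of it there, *drm* 27.3% and 30.3%, *sob* 11.9% and 12.9%, and *odd* 3.21% and 3.08%. Input replicate 1 differed in having more *sob* (24.0%) and less *bowl* (43.4%).

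The 2 transcription factor genes of the tendon lineage were at the low end of the input range, and they differed from each other in how much signal the myoblasts held. *sr* (FBgn0003499, 3R, 18090803 to 18135583, plus strand, 5 transcripts) was at 0.966, 4.14 and 1.86 RPKM in the inputs, with the lowest value in replicate 1. The myoblast libraries had 0.201, 0.520 and 0.657 RPKM, from 137, 356 and 345 reads. *sr* thus had reads in every myoblast library and the highest share of the 9 genes relative to the input, 19.8% (means 0.459 ± 0.234 and 2.32 ± 1.64, SD, n = 3 each). The share moved with the inputs, to 32.5% without input replicate 2 and 15.3% without input replicate 1, and stayed the highest of the 9 each time.

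The groups did not overlap for *sr*, but the lowest input value was only a little above the highest myoblast value, and an exact permutation test (two-sided) gave p = 0.1, the smallest that 3 libraries against 3 can give. *sr* reached 1 RPKM in 2 libraries and was therefore not among the tested genes. When no filter was applied (11192 genes, of which 1116, or 9.97%, were called lower), its log2 fold change by limma was -1.09 (SE 0.398, adjusted p = 0.149), which was not called. Without the filter and without input replicate 1, an alternative chosen after the data were seen, it was -1.41 with an adjusted p of 0.028. The call thus changed without input replicate 1, and no other library was left out in the fit without the filter.

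*dar1* (FBgn0263239, 3L, 3626352 to 3653442, plus strand, 1 transcript) encodes a Krüppel-like zinc finger factor best known for its part in dendrite growth of neurons. It was at 1.22, 3.998 and 3.42 RPKM in the inputs, with the lowest value again in replicate 1. In the myoblasts it was at 0.0303 RPKM in replicate 1, which is 9 reads, and was listed at 0 in replicates 2 and 3. This was 0.351% of the input, and 0% without myoblast replicate 1. The log2 fold change was -1.86 (SE 0.380, 95% interval -2.74 to -0.98, adjusted p = 0.010), and -2.22 without input replicate 1. *dar1* was the only one of the 8 tested genes to lose its call under an alternative other than the stricter filter. It missed the threshold when any myoblast replicate was left out (adjusted p of 0.051, 0.050 and 0.052 without replicates 1, 2 and 3), though its fold change there was -1.87, -1.85 and -1.85 on the log2 scale, and under quantile normalization (-0.83, adjusted p = 0.114). The exons of *dar1* overlap those of *CG10862* on the other strand by 38 bases, and *CG10862* was at 0 in all 6 libraries. The 5 neuron markers, which include *elav* and *nSyb*, were also lowest in input replicate 1 among the inputs (sums 12.97, 52.4 and 47.0 RPKM). In the myoblasts they summed to 2.94 to 4.47 RPKM, mostly *elav* (2.80, 3.99 and 3.11), with *nSyb* at 0.0379, 0 and 0. The part of neuronal RNA in the *dar1* values was not tested.

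Of the 3 genes for surface and matrix proteins, *slow* was the most abundant and *Lrt* the scarcest in the input. *slow* (FBgn0035539, 3L, 4384442 to 4403181, plus strand, 2 transcripts) encodes Slowdown, a secreted protein that modulates integrin adhesion at the embryonic muscle-tendon junction. It was at 18.7, 38.9 and 25.6 RPKM in the inputs. In the myoblasts it was at 1.11, 1.56 and 2.54 RPKM, from 220, 310 and 389 reads. *slow* was the only one of the 9 genes to reach 1 RPKM in every myoblast library. Its means were 1.73 ± 0.734 and 27.7 ± 10.3 (SD, n = 3 each), or 6.25% of the input, and the log2 fold change was -3.37 (SE 0.339, adjusted p = 0.00026).

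*Tsp* (FBgn0031850, 2L, 6686791 to 6709086, minus strand, 7 transcripts) encodes Thrombospondin, a matrix protein that tendon cells secrete and that binds integrin on the muscle side. The deposited input values of *Tsp* were close together, at 10.8, 12.3 and 14.0 RPKM, though this too depends on the scaling. The myoblasts were at 0.282, 0.258 and 0 RPKM. The means were 0.180 ± 0.156 and 12.4 ± 1.62 (SD, n = 3 each), or 1.46% of the input, with a log2 fold change of -3.50 (SE 0.273, adjusted p = 7.6e-05).

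*Lrt* (FBgn0034540, 2R, 20646360 to 20661070, plus strand, 2 transcripts) encodes the leucine-rich tendon-specific membrane protein. It was at 3.35, 6.25 and 3.74 RPKM in the inputs and at 0.0519, 0 and 0 RPKM in the myoblasts. As for *dar1*, the only myoblast signal was in replicate 1, here 16 reads. The myoblast mean was 0.389% of the input mean, and 0% without that replicate, so *Lrt* and *dar1* cannot be ranked by their shares, and the log2 fold change was -2.38 (SE 0.317, adjusted p = 0.0012). With a pseudocount of 0.1 the fold changes of *Lrt*, *Tsp*, *dar1* and *sob* were -5.25, -5.69, -4.61 and -6.73 on the log2 scale, and with quantile normalization those of *Lrt* and *odd* were -1.57 and -1.43.

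In the input, the mean RPKM fell in the order *bowl* (73.7), *drm* (41.4), *slow* (27.7), *sob* (22.7), *Tsp* (12.4), *Lrt* (4.45), *odd* (4.14), *dar1* (2.88) and *sr* (2.32). Neighbours in this order had overlapping ranges for *slow* and *sob*, *Lrt* and *odd*, *odd* and *dar1*, and *dar1* and *sr*, so these pairs cannot be ranked beyond the spread of the 3 inputs, although *odd* was above *dar1* within each of them. The other neighbours did not overlap.

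The share of the input level that the myoblasts held was set beside that of marker genes. The median tested gene was at 96.6% of the input, and 609 of the 7533 tested genes (8.08%) were under 5%. Of the 9 genes, 7 were under 5%, while *slow* was at 6.25% (4.799% without myoblast replicate 3) and *sr*, which was not tested, at 19.8%. Those 7 passed the filter only through the inputs, so their count beside the 8.08% is no support of its own. Among 8 disc epithelium markers, 6 were called lower, against 14.8% of all tested genes. *Dll*, a distal leg selector gene, was at 0.847%, *grh*, an epithelial transcription factor gene, at 1.61%, *crb* at 4.01% and *Fas3* at 4.21%. *Dll*, *grh* and *crb* were under 1 RPKM in every myoblast library. They passed the filter only through the inputs, so the count of 6 is no support of its own. The epithelial genes *Egfr* and *sdt* were at 16.0% and 19.4%, and *baz* (77.7%) and *shg* (149%) were not called. The summed RPKM of the 8 markers was 69.8 to 90.4 in the myoblasts and 175 to 308 in the inputs, and the largest part of the myoblast sum was *shg*, at 53.6, 72.1 and 64.5 RPKM. None of the 8 was at 0 in a myoblast library. Of 2 tracheal markers, *trh* was lower (log2 fold change -2.28, adjusted p = 0.0013) and *btl* was not called. *trh* too was under 1 RPKM in every myoblast library and passed the filter only through the inputs. The part of epithelial or tracheal RNA in the low myoblast values of the 9 genes was not tested.

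**Figure D3:**
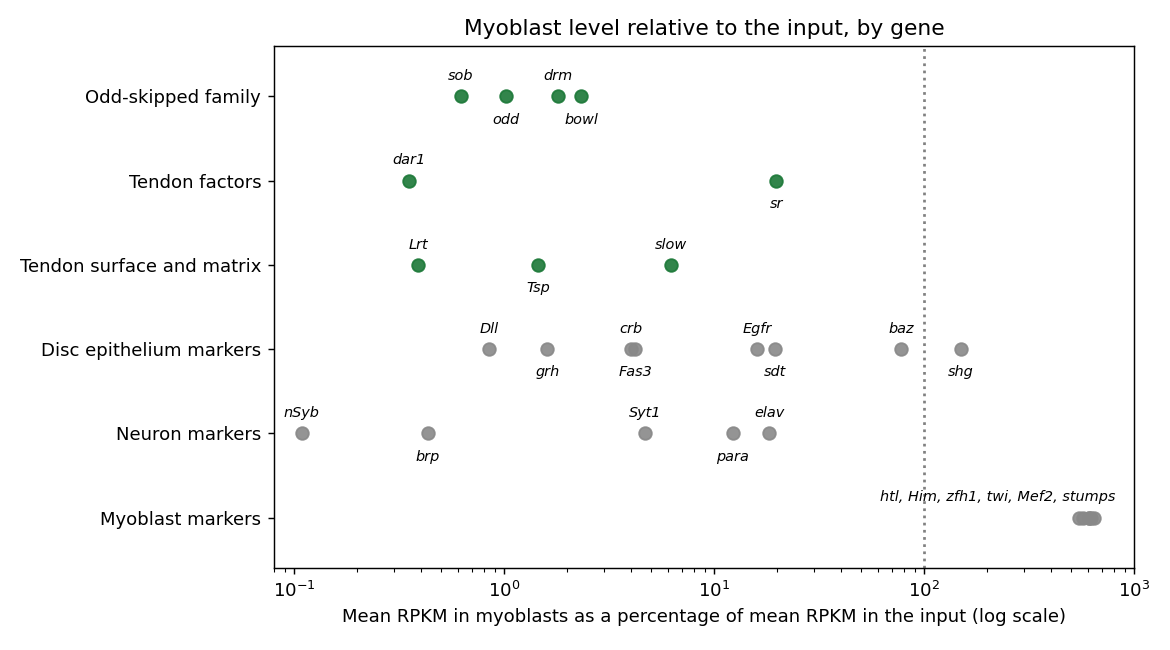
Mean RPKM in the myoblasts as a percentage of the mean in the input (log axis) for the 9 genes (green) and for marker genes (grey), 1 point per gene, with a dotted line at equal levels. Under 5% lie 7 of the 9 genes, from *dar1* at 0.351% to *bowl* at 2.33%, *slow* (6.25%) and *sr* (19.8%) lie above it, and the 6 myoblast markers lie between 546% and 646%.

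Levels within a library were compared for 10 pairs of the 9 genes, on the log2(RPKM + 1) scale, where the added 1 leaves some dependence on the scaling of libraries. The log2(RPKM + 1) of *drm* minus that of *bowl* was -0.63 ± 0.19 in the myoblasts and -0.80 ± 0.27 in the inputs (SD, n = 3 each). The groups overlapped, and the difference was 0.17 (exact permutation test, two-sided, p = 0.6, adjusted over the 10 pairs 0.6). The pairs *sob* and *bowl* and *drm* and *sob* also overlapped, with differences of 0.45 and -0.28 (exact p = 0.5 for each). With a pseudocount of 0.1 these 3 differences changed sign, to -0.31, -1.34 and 1.03, and with no pseudocount that of *drm* and *bowl* was -0.42, so no direction can be given for them. The other 7 pairs did not overlap between the groups (exact p = 0.1 each, adjusted 0.143), and 3 libraries against 3 cannot pass the threshold.

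Of those 7 pairs, 3 held *odd* and 4 held *sr*. The differences of *odd* minus *bowl*, *drm* and *sob* between myoblasts and inputs were 2.497, 2.33 and 2.04, and with a pseudocount of 0.1 they were 0.40, 0.71 and 1.74, so their size depended on the pseudocount. For the pairs with *sr*, the partner had the larger difference between the groups in each. On the log2(RPKM + 1) scale the difference of *slow* minus *sr* between myoblasts and inputs was -2.28, that of *Tsp* minus *sr* -2.42, that of *Lrt* minus *sr* -1.30, and that of *sr* minus *dar1* 0.77. With a pseudocount of 0.1 they were -1.94, -3.70, -3.26 and 2.62. *sr*, *slow* and *bowl* were above 0 in every library, so their ratios can also be taken with no pseudocount and then do not depend on how libraries were scaled, a comparison added after the data were seen. The RPKM of *sr* was 0.0942, 0.529 and 0.322 of that of *bowl* in the myoblasts and 0.0167, 0.0463 and 0.0252 in the inputs, a log2 difference of 3.23 (exact permutation p = 0.1, adjusted over 4 pairs 0.133). The RPKM of *slow* was 0.519, 1.58 and 1.25 of that of *bowl* in the myoblasts and 0.324, 0.435 and 0.346 in the inputs, a log2 difference of 1.46 (exact permutation p = 0.1, adjusted 0.133). Without input replicate 1 the differences were 2.89 and 1.38. In the myoblasts, *sr* and *slow* thus stood higher relative to *bowl* in 3 of 3 libraries.

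**Figure D4:**
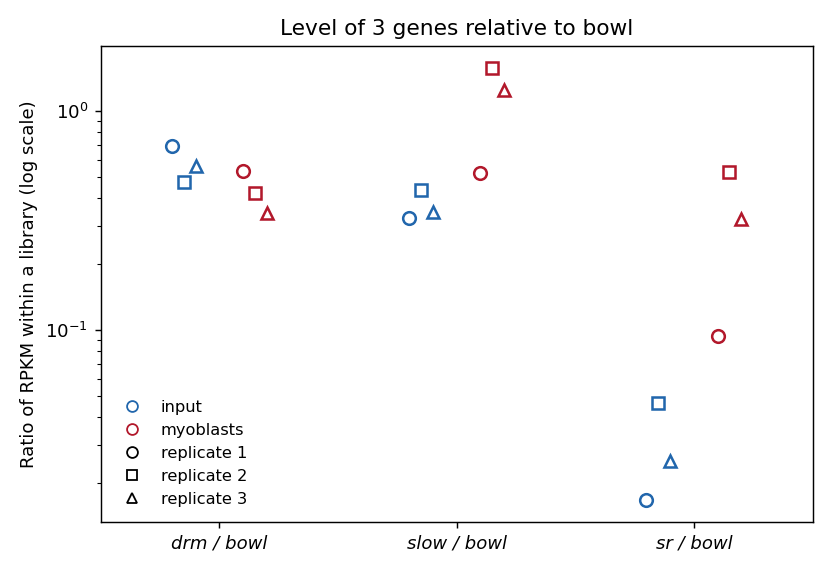
RPKM of *drm*, *slow* and *sr* relative to *bowl* in the same library (log axis), 1 point per library, with inputs in blue, myoblasts in red and a symbol for each replicate. The *drm* points overlap between the groups, while the 3 myoblast points lie above the 3 input points for *slow* (0.519 to 1.58 against 0.324 to 0.435) and for *sr* (0.0942 to 0.529 against 0.0167 to 0.0463).

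Most genes of the wider muscle attachment machinery were not called in either direction, which was also true of all tested genes. Of the 7533 tested genes, 1118 (14.8%) were called lower and 416 (5.52%) higher. Of 18 listed genes for integrins, their linkers, matrix ligands and tendon differentiation, all 18 were matched and 16 were tested. One was called lower, 2 were called higher and 13 were not called, with a median log2 fold change of 0.47 (0.28 without input replicate 1) against 0.01 over all tested genes. The gene called lower was *pio*, which encodes a zona pellucida domain protein of the apical matrix, at 118, 167 and 159 RPKM in the inputs and 2.38, 2.53 and 2.56 in the myoblasts (log2 fold change -5.40, SE 0.209, adjusted p = 8.1e-06). The genes called higher, of which there were 5 without input replicate 1, 4 without input replicate 2 and 1 without myoblast replicates 2 or 3 or input replicate 3, were *how*, an RNA-binding regulator of tendon and muscle maturation (1.05, SE 0.190, adjusted p = 0.0057), and *wb*, a laminin alpha chain gene (1.42, SE 0.344, adjusted p = 0.021). The integrin subunit genes *mys*, *if* and *mew*, with log2 fold changes of 0.59, 0.38 and 0.25, were not called. Of the 2 untested genes, *dpy*, which encodes a giant apical matrix protein, was at 0.657, 1.01 and 1.81 RPKM in the inputs and at 0.0576, 0.0175 and 0.0544 in the myoblasts. The other, *tx*, had overlapping groups with means of 1.003 and 0.897 RPKM in myoblasts and inputs.

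Genes that pattern leg segments and joints, among which the odd-skipped genes act, were mostly called lower. Of 16 listed, 14 were matched to a single gene of the table, and all 14 were tested, with 9 called lower, 1 higher and 4 not called (median log2 fold change -1.28, and -1.48 without input replicate 1). Of all tested genes, 14.8% were called lower and 5.52% higher. Of the 14, 4 (*Dll*, *TfAP-2*, *al* and *nub*) were under 1 RPKM in every myoblast library, and *dac* reached it only in myoblast replicate 2 (1.19). These genes passed the filter only through the inputs, so the count is no support of its own. The leg patterning genes *Dll* (-4.81), *TfAP-2* (-4.80), *dac* (-4.75), *al* (-4.61) and *nub* (-3.26) had the largest changes in the list. The Notch ligand genes *Ser* (-1.99, adjusted p = 0.0020) and *Dl* (-1.14, adjusted p = 0.0092) and the Notch target *E(spl)mbeta-HLH* (-1.38, adjusted p = 0.0016) were also lower, but they kept 20.6%, 43.4% and 37.5% of the input level in the myoblasts. *disco* was lower as well (-1.18, adjusted p = 0.040).

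The receptor gene *N* and its modifier *fng* were not called, at 0.44 and 0.00 on the log2 scale. *bib*, which encodes a membrane protein of the Notch pathway, was the gene called higher, at 147, 180.5 and 159 RPKM in the myoblasts and 33.6, 58.8 and 39.6 in the inputs (1.89, adjusted p = 0.00082). *lin* encodes Lines, the partner of Drm and inhibitor of Bowl. *lin* was not called, and its groups overlapped, with 9.10, 10.5 and 9.45 RPKM in the myoblasts and 2.84, 12.1 and 10.01 in the inputs. Its log2 fold change was 0.38 (95% interval -0.66 to 1.41, adjusted p = 0.644), and its lowest value was that of input replicate 1, without which the fold change was -0.17 (adjusted p = 0.520).

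The 4 odd-skipped genes lie together on chromosome arm 2L in the order *drm*, *sob*, *odd*, *bowl*, in a stretch of 244.9 kb. The gaps between neighbouring genes are 29.6, 23.5 and 164.9 kb. Of 43 other genes of the table annotated in this stretch, 32 were under 1 RPKM in every library and 27 were at 0 in every library. Of the 43, 6 were tested, and of all tested genes 14.8% were called lower. *CG31777* was called lower (log2 fold change -3.17, adjusted p = 0.0499), but its inputs were far apart, at 94.4, 4.71 and 32.4 RPKM with the highest in replicate 1, and the call was lost without input replicates 1 (-2.24, adjusted p = 0.057) or 3 and without any myoblast replicate (adjusted p of 0.094 to 0.182 for these 4). The other 5 (*Dot*, *for*, *cutlet*, *CG31955* and *CG2818*) were not called. Among them, *for* and *cutlet* were higher in every myoblast library than in any input. Their mean RPKM was 13.9 and 8.18 in the myoblasts and 8.85 and 4.73 in the inputs. Among the untested genes, *Shaw*, *CG10019* and *CG43707* were lower in every myoblast library than in any input. Their mean RPKM was 2.35, 1.35 and 1.16 in the inputs and 0, 0.0978 and 0.00531 in the myoblasts. The remaining untested genes overlapped between the groups. Of all tested genes, 21.5% had every myoblast library below every input, a share that does not cover untested genes.

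**Figure D5:**
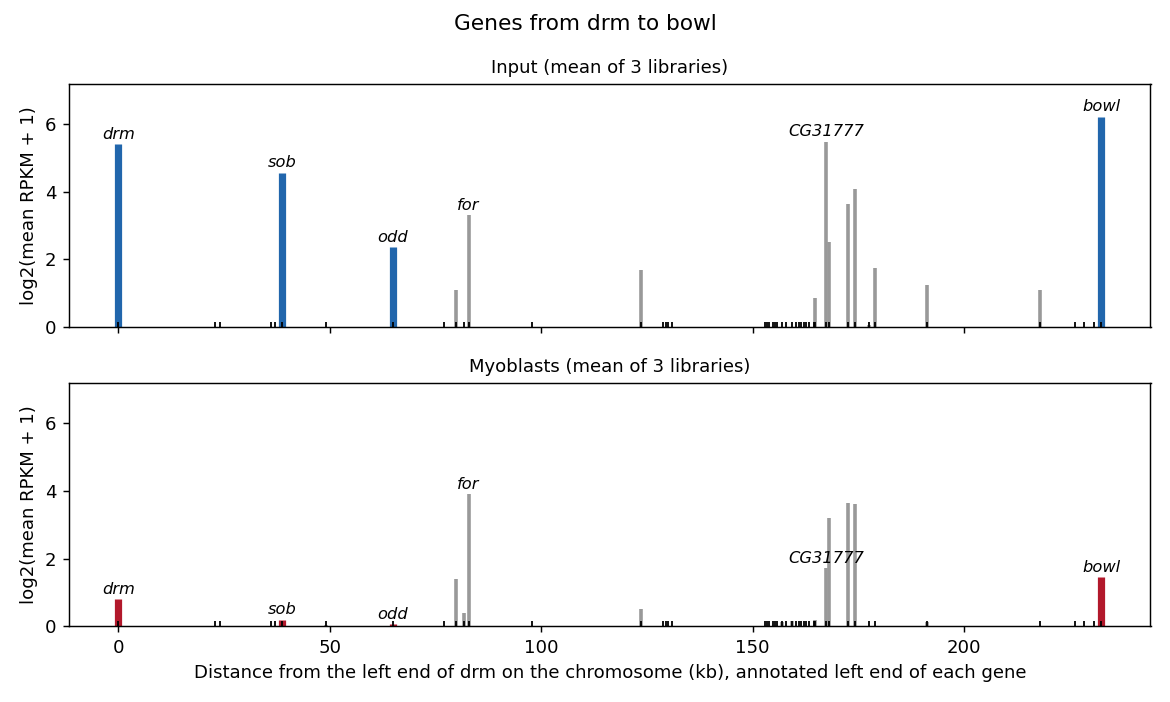
Level of the genes along the odd-skipped cluster, as log2 of the mean RPKM + 1 of 3 libraries, in the inputs (top) and myoblasts (bottom), against distance in kb from the left end of *drm*. Thick bars are the 4 family genes, thin grey bars the other genes, and ticks the left end of each annotated gene. The 4 family genes stand at 4.14 to 73.7 RPKM in the input and at 0.0421 to 1.72 RPKM in the myoblasts, and 32 of the 43 other genes stay under 1 RPKM in every library.

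Genes with the most similar pattern over the 6 libraries were listed for *odd* and for *sr*, as Pearson correlations of log2(RPKM + 1), which are a description of libraries that fall into 2 groups. For *odd* these were *ergic53* (r = 0.9999), *CG5326*, *ImpL1*, *MESK2* and *Aplip1*, and 738 tested genes had r above 0.95. For *sr* they were *Oatp30B* (r = 0.996), *atl*, *dsd*, *CG3679* and *dally*, and 81 tested genes had r above 0.95. Among the 9 genes themselves, the correlation with *odd* ran from 0.853 (*sr*) to 0.993 (*Lrt*), so *sr* was the least like *odd* across these libraries.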

How the data were processed

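The authors sequenced oligo(dT)-primed, single-end libraries (NEBNext Ultra) and, per the labels and methods, used FastQC and Cutadapt, HISAT2 2.1.0 and HTSeq 0.11.2 on Dm6 with Ensembl release 70, and DESeq2 1.22.2 for their own test, which was not used here. The authors computed the deposited RPKM values with Cufflinks. The strand setting is not given in the sources used here. Gene positions are from Ensembl release 115 on dm6 (17216 of 17490 genes matched by identifier).

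RPKM were not counts, so log2(RPKM + 1) was fitted with limma 3.58.1 in R 4.3.3 (empirical Bayes with trend, Benjamini-Hochberg adjustment, 2 groups, no covariates) on genes that reached an RPKM of 1 in 3 or more of the 6 libraries. The fit was tested on simulated data drawn from normal distributions, which do not reproduce genes listed at 0 in some libraries. RPKM times exon length was a whole multiple of a single step for 97.4% to 98.6% of genes under 100 reads (tolerance 0.05 reads), which gave the reads behind a value. Read numbers cover counting error only, since they are not independent molecules.

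Intervals are at 95%. Named genes were the 9 genes, 2 lists (muscle attachment, leg segment and joint), cell type markers, genes within the odd-skipped cluster and the 5 genes most like *odd* and *sr*. The genes and lists were chosen with earlier results of these data known. *ap* and *dys* of the second list were not matched to a single gene, and *CSN2* was read as *alien*. Alternatives covered the pseudocount, filters, scaling, the replicate number as a block, the trend, the adjustment and leaving out each library.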

Additional observations from a re-analysis of the deposited data

How the results depend on the processing

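Of 125 fold changes of the 8 tested genes under the alternatives, 121 kept their direction and their call, 4 (all of *dar1*) kept their direction and lost the call, and 0 reversed. Direction could not change in the fits that altered only the filter, the replicate block, the trend or the adjustment. No call could be lost by leaving out the adjustment. The fit without the filter and without input replicate 1, added after the data were seen, repeated the fold changes without that library. The count of the 9 genes called lower was 7 with quantile normalization and 7 to 8 when a library was left out, with 0 called higher each time. With genes of mean RPKM above 5 only, 5 were tested and all 5 were called lower, since *odd*, *dar1*, *Lrt* and *sr* did not reach that level. Over all genes, 607 were called lower with that filter, against 1118. Scaling moved the split between directions, to 180 higher and 924 lower with libraries rescaled to the same sum and to 809 and 797 with quantile normalization. Quantile normalization moved the median over the background genes from 0.01 to 0.16 on the log2 scale, and the 8 tested genes all stayed below that median. Without adjustment of p, 763 were called higher. Leaving out a library gave 759 to 1471 lower and 139 to 871 higher (164, 139 and 144 without myoblast replicates 1, 2 and 3, and 871 and 259 without input replicates 1 and 3). Libraries of the same replicate number correlated at 0.345, 0.262 and 0.00685 in their deviations from the group means, and not every library correlated best with its own number, so the numbers were not taken to pair the samples. With the replicate block, 8 of the 9 genes were lower, 0 were higher, and 1177 and 491 genes were lower and higher overall. The differences between groups in the *drm* to *bowl*, *sob* to *bowl* and *drm* to *sob* ratios reversed with a pseudocount of 0.1, to -0.309, -1.338 and 1.030, and that of *drm* to *bowl* with no pseudocount, to -0.424, and the cause was not tested. Low myoblast values, of 0 to 389 reads for all of the genes but *bowl*, limit how finely the genes can be ranked there.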
